A study of Mus musculus with 58 samples.

Results

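The genes described here are 9 genes of heme synthesis, iron uptake, heme breakdown and carbon dioxide handling, taken by name from a table of 23152 gene symbols measured in single blood progenitor cells of the mouse. Alad, Uros, Urod, Cpox and Fech encode enzymes of heme synthesis, Tfrc encodes the transferrin receptor, Blvrb encodes biliverdin reductase B, and Car1 and Car2 encode carbonic anhydrases. All 9 were listed in the table and all 9 had counts in cells of both groups. Heme is an iron-holding ring that is built partly in mitochondria and partly in the cytosol. Its synthesis begins with an Alas enzyme (Alas2 in red cell precursors, Alas1 in other cells), continues through steps that include Alad, Uros and Urod in the cytosol and Cpox and Ppox at the mitochondrion, and ends when Fech inserts iron. Red cell precursors take up iron through Tfrc and later hold large amounts of carbonic anhydrase, which interconverts carbon dioxide and bicarbonate.

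RNA was counted in 58 singly sorted bone marrow cells of wild type C57BL/6 mice. Common myeloid progenitors (CMP, 24 cells) were sorted as lineage marker negative, Kit positive, Sca1 negative, CD16/32 negative and CD34 positive cells, and long-term haematopoietic stem cells (LT-HSC, 34 cells) as lineage marker negative, Kit and Sca1 positive, Flt3 and CD34 negative cells. A CMP can give rise to red cells, platelets and myeloid cells, and an LT-HSC to all blood lineages. The labels give no age, sex or animal for any cell, and give both groups a passage number of 8-10. Because no animal is named, each group was treated as 1 sample, and no p-value was computed for any difference.

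CMP held 88329 to 706184 counts a cell (median 290977) and LT-HSC 45022 to 860553 (median 236774). Levels are given as CPM (each count over the total of its cell or pool, on a fixed scale), ratios are log2 values of CMP over LT-HSC after all cells of a group were summed, and every interval is a 95% interval that covers counting error only. All 9 granulocyte and monocyte genes with enough counts had a ratio of at least 2-fold toward CMP (median log2 5.66), and 9 of 10 stem cell genes were at least 2-fold lower (median log2 -2.86). Among all genes with at least 20 counts, 28.1% were as much higher and 22.7% as much lower. The stem cell list summed to 76.2 CPM in CMP (3.44 to 315), against 1361 CPM in LT-HSC 1 to 16 and 270.1 CPM in LT-HSC 17 to 34, where LT-HSC 33 had 1.21 CPM, below every CMP. The X-inactivation RNA Xist had counts in CMP 3 to 24 and in none of the other 36 cells (CMP 1 and 2 and all LT-HSC), so the sex of the donor and the gate can hardly be told apart. Levels of several of the 9 genes also differed between cells with low and high numbers in the labels: LT-HSC 1 to 16 stood apart from LT-HSC 17 to 34, and CMP 3 to 16 from CMP 17 to 24. No label calls these blocks batches, and the division of the CMP was chosen after the values were seen. Values are therefore given by block for many results, though not for every gene and block.

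Of the 9 genes, 5 were at least 2-fold higher in CMP (Cpox, Car1, Tfrc, Blvrb and Fech), 1 was at least 2-fold lower (Car2), and Urod, Uros and Alad lay between. Among all 10937 genes with at least 20 counts, 28.1% passed 2-fold toward CMP and 22.7% passed 2-fold toward LT-HSC. The median log2 ratio was 1.01 over the 9 genes and 0.13 over all genes. The blocks moved this count. With LT-HSC 1 to 16 as the only stem cells, 3 of the 9 (Cpox, Tfrc and Car1) were at least 2-fold higher against 37.1% of all genes, and the median of the 9 was -0.11 against 0.36 over all genes. With LT-HSC 17 to 34 alone, 7 of the 9 were at least 2-fold higher against 34% of all genes. With CMP 17 to 24 as the only CMP, 3 of the 9 were higher (Urod, Cpox and Car1) against 25.4% of all genes, and 2 were lower (Alad and Car2) against 32.1%. In cells without Xist alone, 4 were higher (Cpox, Tfrc, Blvrb and Car1) against 18.9%, and Alad and Fech were lower against 48.8%. Without CMP 1 and 2, 4 were higher against 28.7% of all genes, with Blvrb at 0.86, and with CMP 3 to 16 as the only CMP the same 5 as in all cells were higher, against 26.5%. Cpox and Car1 passed 2-fold toward CMP with every pool named here, but single cells carried some of the pools. In CMP 17 to 24, CMP 19 held 98.4% of the Cpox counts and 72.9% of the Car1 counts. In CMP 1 and 2, CMP 1 held 96.6% of the Cpox counts and 87.2% of the Car1 counts.

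**Figure D1:**
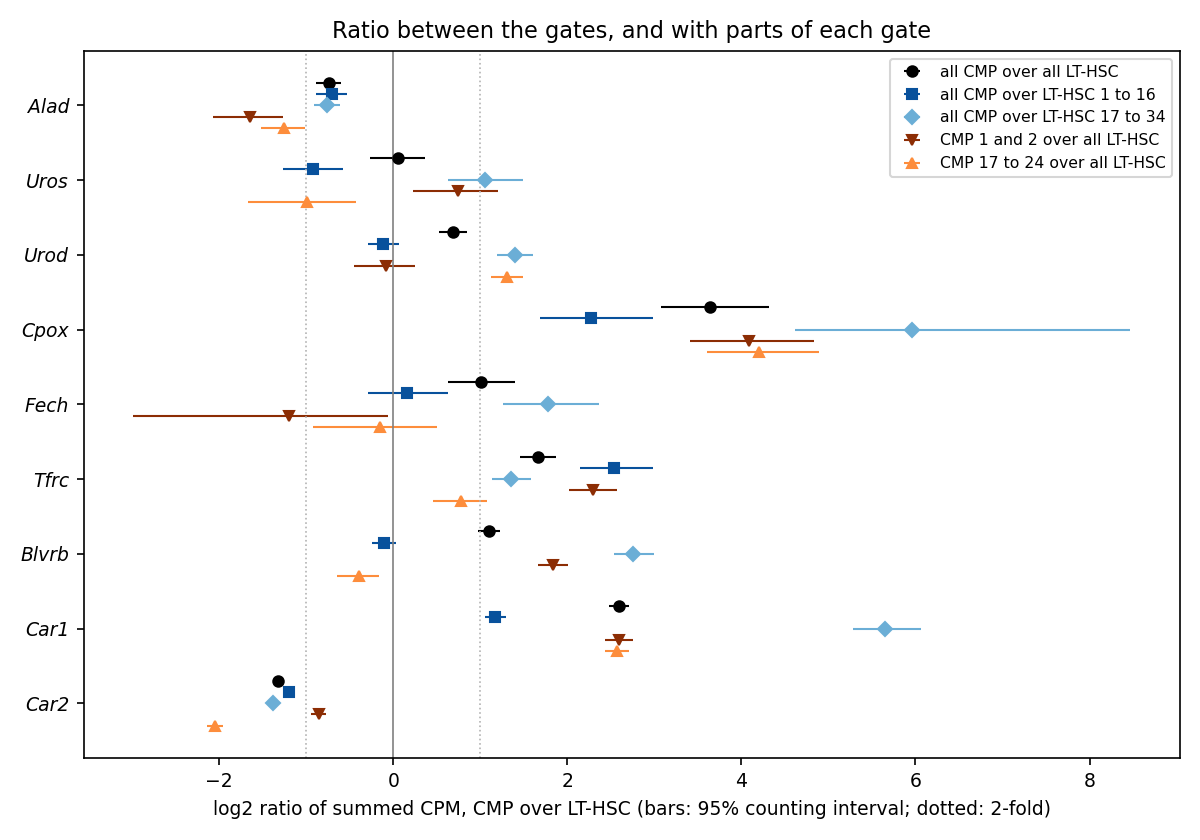
Ratio of the summed CPM of each gene, CMP over LT-HSC, on a log2 axis, with 95% counting intervals, for all cells and for parts of each group. Cpox and Car1 lie above the 2-fold line with every pool drawn, Car2 lies below 0 with every pool, and Fech, Blvrb, Urod and Uros lie on both sides of 0.

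The cytosolic enzymes Alad, Uros and Urod did not share a direction. Alad, which joins the precursor molecules into a ring unit, had 0, 64.3 and 500 CPM in CMP (lowest, median and highest cell) and 0, 23.2 and 607 CPM in LT-HSC. The median cell was thus higher in CMP, while the summed level was lower, at 82.0 CPM in CMP and 137 CPM in LT-HSC (log2 -0.74, -0.89 to -0.60). In LT-HSC the counts sat in few cells: 31 of 34 had a count and 13 had at least 10. In CMP 21 of 24 had a count and 16 had at least 10. The median cell of CMP 17 to 24 had 4.21 CPM of Alad, against 83.7 CPM in the median cell of CMP 3 to 16. Without CMP 5, which held 27.8% of the CMP counts of Alad, the log2 ratio was -1.15. It was -0.23 with CMP 3 to 16 as the only CMP and -1.26 with CMP 17 to 24.

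Uros and Urod act in succession, closing the ring and trimming its side chains. Uros had 0, 5.41 and 130 CPM in CMP cells and 0, 1.65 and 215 CPM in LT-HSC. The groups overlapped over nearly their whole range, and the summed levels were 21.4 CPM in CMP and 20.6 CPM in LT-HSC (log2 0.05, -0.26 to 0.36). Only 3 CMP and 5 LT-HSC held at least 10 counts of Uros. The ratio was -0.92 against LT-HSC 1 to 16 and 1.05 against LT-HSC 17 to 34. Uros overlaps Bccip on the opposite strand, and the use of strand in counting is not given in the sources used here, so reads of the pair may not have been separated. Urod had 0, 61.3 and 601 CPM in CMP cells and 0, 14.2 and 515 CPM in LT-HSC, and summed levels of 101 CPM in CMP and 62.9 CPM in LT-HSC (log2 0.69, 0.53 to 0.84). A single cell, CMP 19, held 36.2% of the CMP counts of Urod, and without it the ratio was 0.13. Against LT-HSC 1 to 16 the ratio was -0.11 and against LT-HSC 17 to 34 it was 1.40. It was 0.25 with CMP 3 to 16 as the only CMP and 1.31 with CMP 17 to 24, where CMP 19 held 64.9% of the counts.

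Cpox, which carries out the step after Urod in the intermembrane space of mitochondria, had the highest ratio of the 9 genes. Its levels were 0, 6.39 and 286 CPM in CMP cells and 0, 0 and 28.6 CPM in LT-HSC. The median cell of LT-HSC 1 to 16 was near that of CMP, at 5.59 CPM. A count was found in 17 of 24 CMP, 11 of 16 cells of LT-HSC 1 to 16 and 2 of 18 of LT-HSC 17 to 34. After cells were thinned to 97978 counts, the numbers were 8 of 22, 8 of 14 and 1 of 16. The summed level was 33.3 CPM (235 counts) in CMP and 2.62 CPM (26 counts) in LT-HSC, a 12.5-fold difference (log2 3.64, 3.08 to 4.31). The most Cpox counts in any LT-HSC were 8, and 4 CMP held at least 10. These were CMP 19 with 123 counts, CMP 1 with 56, CMP 3 with 13 and CMP 4 with 11. CMP 19 held 52.3% of the CMP counts, and without it the log2 ratio was 2.67, which is still above 2-fold. The ratio was 2.27 against LT-HSC 1 to 16 (6.74 CPM) and 5.96 against LT-HSC 17 to 34, where all 18 cells together had 3 counts. Below the level of CMP 19, Cpox differed by block: 12 of 14 cells of CMP 3 to 16 had a count, and 3 of 8 cells of CMP 17 to 24. Cpox overlaps Gpr15 on the opposite strand.

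The Cpox promoter is shown because Cpox had the highest ratio of the 9 genes. It lies at chr16:58669958-58670257 on the plus strand of GRCm38.p6 (RefSeq), from 250 bases before the start of transcription to 50 bases after it. The capitals mark the letters TTATC, the reverse complement of GATAA, the core that GATA factors bind.

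Cpox promoter: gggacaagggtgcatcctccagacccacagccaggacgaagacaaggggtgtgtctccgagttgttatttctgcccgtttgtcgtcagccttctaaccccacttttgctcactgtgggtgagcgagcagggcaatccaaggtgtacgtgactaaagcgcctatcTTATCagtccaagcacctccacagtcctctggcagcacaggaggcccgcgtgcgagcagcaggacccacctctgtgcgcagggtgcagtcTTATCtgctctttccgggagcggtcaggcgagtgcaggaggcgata

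The window held 2 such cores, at -86 and 4 from the start, both on the minus strand. Of 32851 promoter windows of the same length, 25.4% held at least 1 GATAA core on either strand and 5.27% held at least 2. Windows were found for 6 of the 9 genes. The second annotated start of Uros held 1 core at -68, and the windows of Alad, Urod, Tfrc and Blvrb and of the other Uros start held none. The short core CACCC, bound by Klf factors, was in 57.5% of windows, and the Cpox window held 4, all on the minus strand. These matches are letters in a window, and the 3′ counts do not say which start was used. Binding of GATA or Klf factors to them was not tested.

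Fech, the mitochondrial enzyme that inserts iron, was found in most CMP and in few LT-HSC. Its levels were 0, 12.2 and 118 CPM in CMP cells and 0, 0 and 120 CPM in LT-HSC. A count was found in 22 of 24 CMP (91.7%, 73.0 to 99.0%, exact Clopper-Pearson) and in 8 of 34 LT-HSC (23.5%, 10.7 to 41.2%). After every cell was thinned to 97978 counts the numbers were 15 of 22 CMP and 6 of 30 LT-HSC. Detection of any count held by block, with a count in 13 of 14 cells of CMP 3 to 16 and 7 of 8 of CMP 17 to 24, and in LT-HSC in 4 of the 16 cells of the lower-numbered block and 4 of the 18 of the higher. At least 10 counts were held by 7 CMP and 4 LT-HSC. In CMP 17 to 24 the median count was 1, and 1 cell held at least 10. The summed level was less even, at 19.7 CPM in CMP and 9.77 CPM in LT-HSC (log2 1.01, 0.63 to 1.40). LT-HSC 10 alone held 39 counts, or 40.2% of the LT-HSC total, and without it the log2 ratio was 1.70. The ratio turned to -1.20 with CMP 1 and 2 as the only CMP, which rests on 5 counts, and was -0.16 (-0.92 to 0.50) with CMP 17 to 24 alone. Most CMP counts of Fech, 112 of 139, came from CMP 3 to 16.

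Together with these 5 enzymes, the heme synthesis list of 9 genes had 4 at least 2-fold higher in CMP, 0 lower and 5 between, with a median log2 ratio of 0.69. Among all genes 28.1% were higher and 22.7% lower, with a median of 0.13. Both genes of the initial step were higher in CMP. Alas1 had 90.9 CPM in CMP and 17.0 CPM in LT-HSC (log2 2.41). Alas2, the red cell form, was counted 28 times in CMP and 0 times in LT-HSC, at least 13.1-fold higher against a floor of 3 counts over the LT-HSC pool. Its counts were spread over 11 of the 14 cells of CMP 3 to 16 and both CMP 1 and 2, while none of the 8 cells of CMP 17 to 24 had one, CMP 19 included. Ppox lay at 19.5 CPM in CMP and 37.3 CPM in LT-HSC (log2 -0.93). The summed level of the 9 enzymes was 473 CPM in CMP and 365 CPM in LT-HSC. With CMP 17 to 24 as the only CMP the median of the list was -0.58, and against LT-HSC 1 to 16 it was 0.15. The medians over all genes were -0.12 and 0.36 in the same order.

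**Figure D2:**
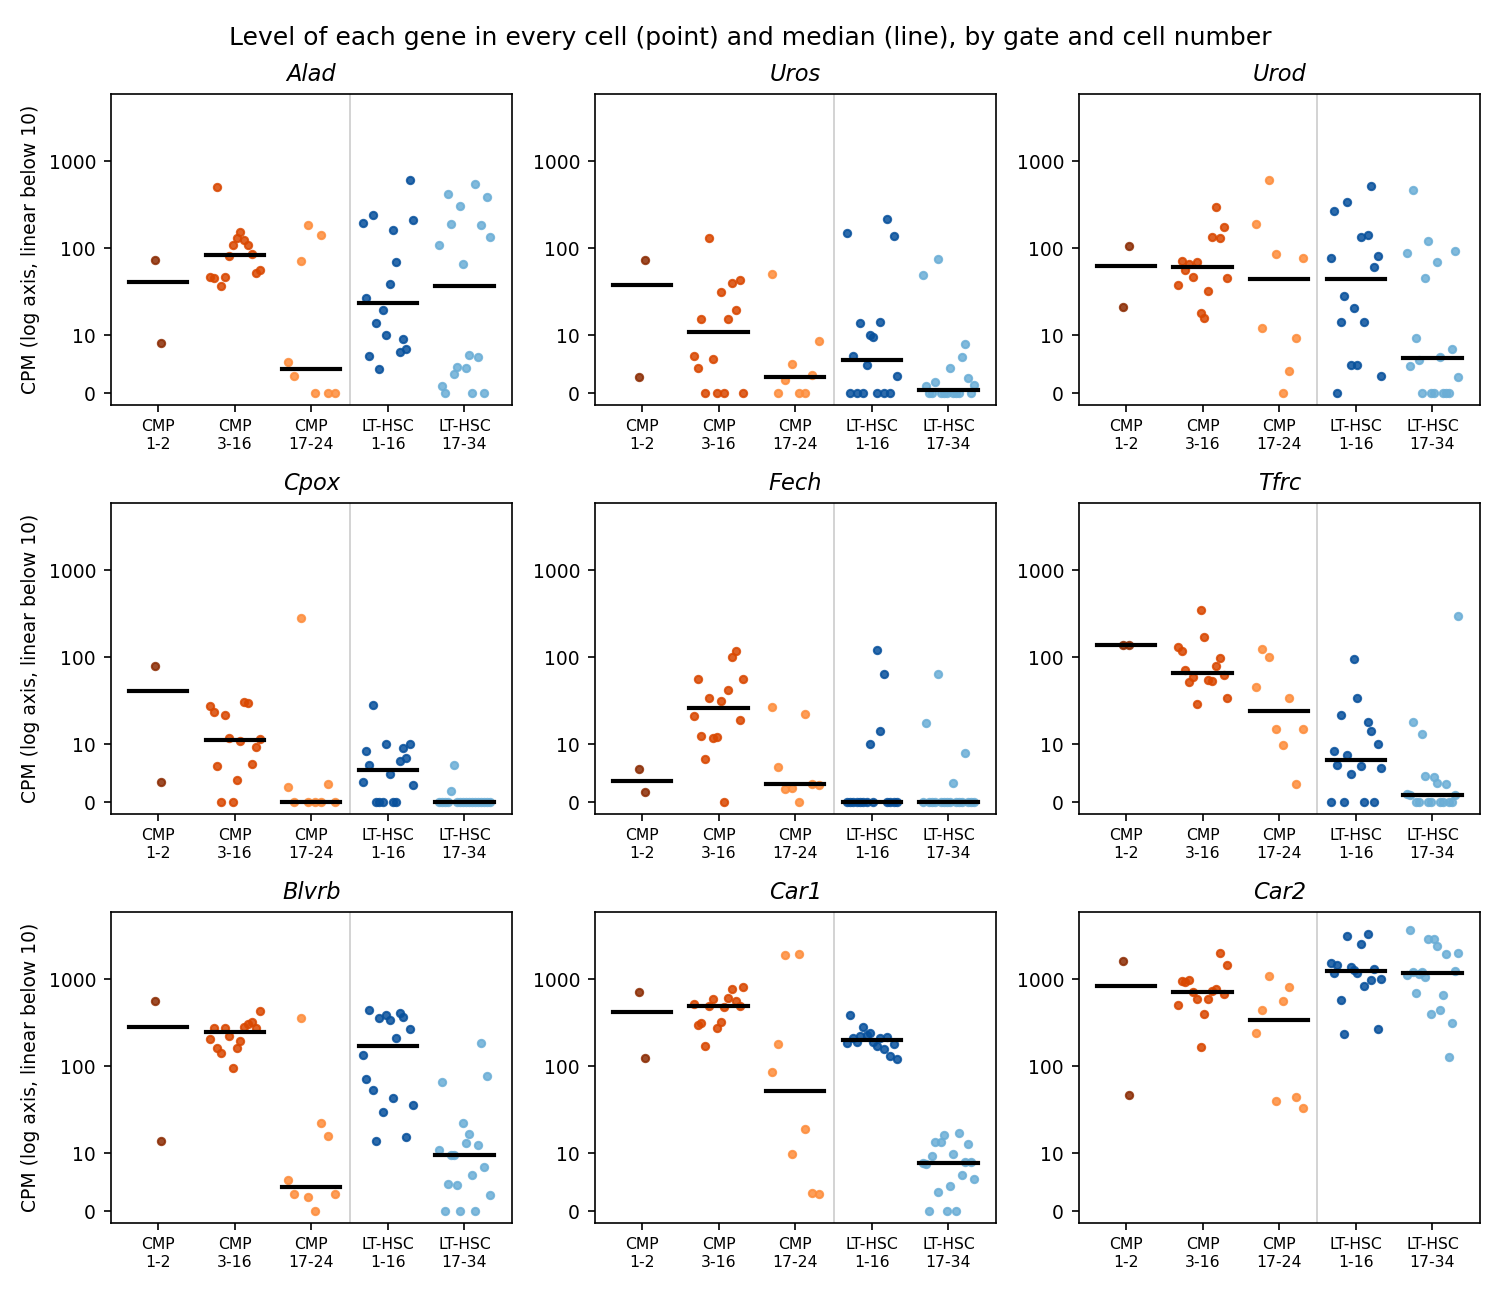
CPM of each of the 9 genes in every cell (points) with the median of each block (line), on a log axis that is linear below 10 CPM, with CMP at the left and LT-HSC at the right. Car1 lies between 121 and 392 CPM in all of LT-HSC 1 to 16 and at or below 17.0 CPM in all of LT-HSC 17 to 34, and Blvrb is under 25 CPM in all of CMP 17 to 24 except CMP 19.

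Tfrc, the receptor that carries transferrin-bound iron into the cell, was found in every CMP. Its levels were 3.17, 60.2 and 349 CPM in CMP cells and 0, 3.82 and 297 CPM in LT-HSC. The summed level was 89.5 CPM in CMP and 28.2 CPM in LT-HSC, a 3.17-fold difference (log2 1.66, 1.46 to 1.87). The groups overlapped, and LT-HSC 34 stood above the other stem cells, of which the next had 96.4 CPM. Its 216 counts were 77.1% of all LT-HSC counts of Tfrc. Without that cell the log2 ratio was 3.68. Only 1 other stem cell, LT-HSC 8 with 19 counts, held at least 10, while 14 of 24 CMP did. Medians were 138 CPM in CMP 1 and 2, 66.6 CPM in CMP 3 to 16 and 24.3 CPM in CMP 17 to 24, against 7.29 CPM for LT-HSC 1 to 16 and 1.18 CPM for cells 17 to 34. Every block of CMP thus had a higher median than either block of LT-HSC, but the summed ratio was under 2-fold with CMP 17 to 24 as the only CMP (log2 0.77, 0.45 to 1.08). LT-HSC 34 was not rich in erythroid RNA, with 11.01 CPM over the erythroid regulator list, and had 249 CPM over the stem cell list. The erythroid regulator list held Gata1, Klf1, Gfi1b, Tal1, Zfpm1, Epor, Mfsd2b, Ermap, Aqp1, Rhd, Cldn13 and Samd14. Despite its name, it mixes transcription factors with membrane proteins.

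Tfrc mRNA is a textbook target of the iron regulatory proteins, which bind hairpins with a CAGTG loop (iron-responsive elements) when iron is low. In the 3′ untranslated region of Tfrc they protect the message, and in the 5′ region of ferritin, Alas2 and ferroportin (Slc40a1) messages they block translation. The sites are shown because they are what Tfrc shares with the other iron genes counted here. They were read from GRCm38 with GENCODE M21 transcripts, 5′ to 3′ on the gene's strand, with the loop in capitals.

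Tfrc site 1 (chr16:32631220-32631246): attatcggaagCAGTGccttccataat
Tfrc site 2 (chr16:32631599-32631625): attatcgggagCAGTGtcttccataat
Tfrc site 3 (chr16:32631664-32631690): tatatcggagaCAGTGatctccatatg
Tfrc site 4 (chr16:32631711-32631737): attatcgggaaCAGTGtttcccataat
Fth1 (chr19:9982733-9982759): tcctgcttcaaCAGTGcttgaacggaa
Ftl1 (chr7:45459780-45459806, minus strand): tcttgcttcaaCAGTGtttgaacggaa
Alas2 (chrX:150547459-150547485): tggttcgtcctCAGTGcagggcaacag
Slc40a1 (chr1:45925466-45925492, minus strand): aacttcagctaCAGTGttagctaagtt

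The search asked for C, any 5 bases, CAGTGN and 5 bases that pair with the earlier 5 (G with T allowed), on the transcript's strand, and 5 more bases are shown on each side. Of 21877 protein-coding genes, 271 (1.24%) held at least 1 match in their longest transcript, and 1, Tfrc, held 4 or more. Genes that share the element did not share a direction: Alas2 was higher in CMP as above, Slc40a1 had 4.25 CPM in CMP and 0.70 CPM in LT-HSC (log2 2.52), and the ferritin chains were lower in CMP. Fth1 had 2793 CPM in CMP and 4001 CPM in LT-HSC (log2 -0.52), and Ftl1 had 2906 CPM in CMP and 4943 CPM in LT-HSC (log2 -0.77). RNA counts do not measure the translation that the 5′ elements control.

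Of the 22 genes of iron uptake and storage, 9 were at least 2-fold higher in CMP, 3 lower and 10 between (median log2 0.78), beside 28.1% higher and 22.7% lower among all genes (median 0.13). Steap3, which reduces iron inside the endosome, had 12.5 CPM in CMP and 0.50 CPM in LT-HSC (log2 4.50), but CMP 1 held 56.8% of its CMP counts. Ireb2, one of the iron regulatory proteins, had 27.5 CPM in CMP and 7.95 CPM in LT-HSC (log2 1.78). Hfe, which binds the transferrin receptor, had 0.57 CPM in CMP and 7.25 CPM in LT-HSC (log2 -3.52), and the mitochondrial iron carrier Slc25a28 had 8.50 CPM in CMP and 31.2 CPM in LT-HSC (log2 -1.87). The summed level of the list, most of it ferritin, was 7096 CPM in CMP and 9903 CPM in LT-HSC. With CMP 1 and 2 as the only CMP the median of the list was -0.52, against -0.91 over all genes.

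The mitochondrial genes that carry heme precursors and build iron-sulfur clusters had 5 of 18 at least 2-fold higher in CMP, 4 lower and 9 between, close to the shares of all genes (28.1% and 22.7%). Their median log2 ratio was -0.57, against 0.13 over all genes. Transporters were among the higher genes. Abcb6 had 13.2 CPM in CMP and 1.11 CPM in LT-HSC (log2 3.52), and Tmem14c, which moves a heme precursor into the mitochondrion, had 345 CPM in CMP and 114 CPM in LT-HSC (log2 1.60). Clpx, a chaperone that activates the Alas enzyme, had 6.80 CPM in CMP and 34.6 CPM in LT-HSC (log2 -2.34).

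Blvrb, a cytosolic reductase abundant in red cells, had 0, 179 and 558 CPM in CMP cells and 0, 25.9 and 446 CPM in LT-HSC. The summed level was 187 CPM in CMP and 87.3 CPM in LT-HSC (log2 1.10, 0.97 to 1.22). The groups overlapped, and each held a low and a high block. In CMP 3 to 16 all 14 cells lay between 96.2 and 430 CPM, while in CMP 17 to 24 the median was 4.21 CPM and 153 of 169 counts came from CMP 19. LT-HSC 1 to 16 had 201 CPM and LT-HSC 17 to 34 had 27.6 CPM. The log2 ratio was -0.11 (-0.24 to 0.03) against LT-HSC 1 to 16, 2.75 against LT-HSC 17 to 34, and -0.40 (-0.65 to -0.16) with CMP 17 to 24 as the only CMP. No direction between the gates is therefore shared by the blocks of Blvrb.

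Of 12 genes of heme breakdown and export with at least 20 counts, 4 were at least 2-fold higher in CMP, 1 lower and 7 between (median log2 0.39), beside 28.1% higher and 22.7% lower among all genes (median 0.13). Hebp1, a heme-binding protein, was counted 127 times in CMP and 1 time in LT-HSC (log2 6.90, 4.98 to 12.8), and 84.3% of the CMP counts came from CMP 19. Abcg2, a transporter that exports porphyrins and marks stem cells, had 22.1 CPM in CMP and 143 CPM in LT-HSC (log2 -2.69), with 144 and 142 CPM in LT-HSC 1 to 16 and 17 to 34. Nqo1, a quinone reductase, had 7.93 CPM in CMP and 2.82 CPM in LT-HSC (log2 1.48). Blvra, the main biliverdin reductase of the adult, had 33.6 CPM in CMP and 66.2 CPM in LT-HSC (log2 -0.98).

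The carbonic anhydrases Car1 and Car2 differed in opposite directions. Both are cytosolic enzymes of red cells, and they lie close together on chromosome 3 of mm10, Car1 at chr3:14766216-14808368 on the minus strand and Car2 at chr3:14886273-14900770 on the plus strand (GENCODE M21). Car1 had 2.97, 398 and 1927 CPM in CMP cells and 0, 16.5 and 392 CPM in LT-HSC. Its summed level was 441 CPM in CMP and 73.1 CPM in LT-HSC, a 6.03-fold difference (log2 2.59, 2.48 to 2.71). Car2 had 32.7, 640 and 1983 CPM in CMP cells and 128, 1187 and 3714 CPM in LT-HSC. All 58 cells held at least 10 counts of Car2, which no other of the 9 genes did. Its summed level was 659 CPM in CMP and 1646 CPM in LT-HSC, 2.50-fold lower in CMP (log2 -1.32, -1.37 to -1.27), and the ratio was -1.19 against LT-HSC 1 to 16 and -1.38 against LT-HSC 17 to 34.

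Car1 took 40.1% of the Car1 and Car2 counts together in CMP (39.0 to 41.2%) and 4.25% in LT-HSC (3.95 to 4.56%). Among cells with at least 20 counts of the pair, the share was 2.26, 41.5 and 77.3% in 22 CMP (lowest, median and highest) and 0, 4.22 and 48.5% in 32 LT-HSC. It passed 50% in 6 CMP and in 0 LT-HSC. The share was 32.8% in CMP 1 and 2, 36.8% in CMP 3 to 16 and 52.2% in CMP 17 to 24, against 11.5% for LT-HSC 1 to 16 and 0.51% for cells 17 to 34. The median over cells ran in another order, at 43.2% in CMP 3 to 16 and 27.7% in CMP 17 to 24, where 2 cells passed 50% and CMP 19 held 809 of the 1109 Car1 counts. In every block of CMP the summed share was above that of either block of LT-HSC.

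**Figure D3:**
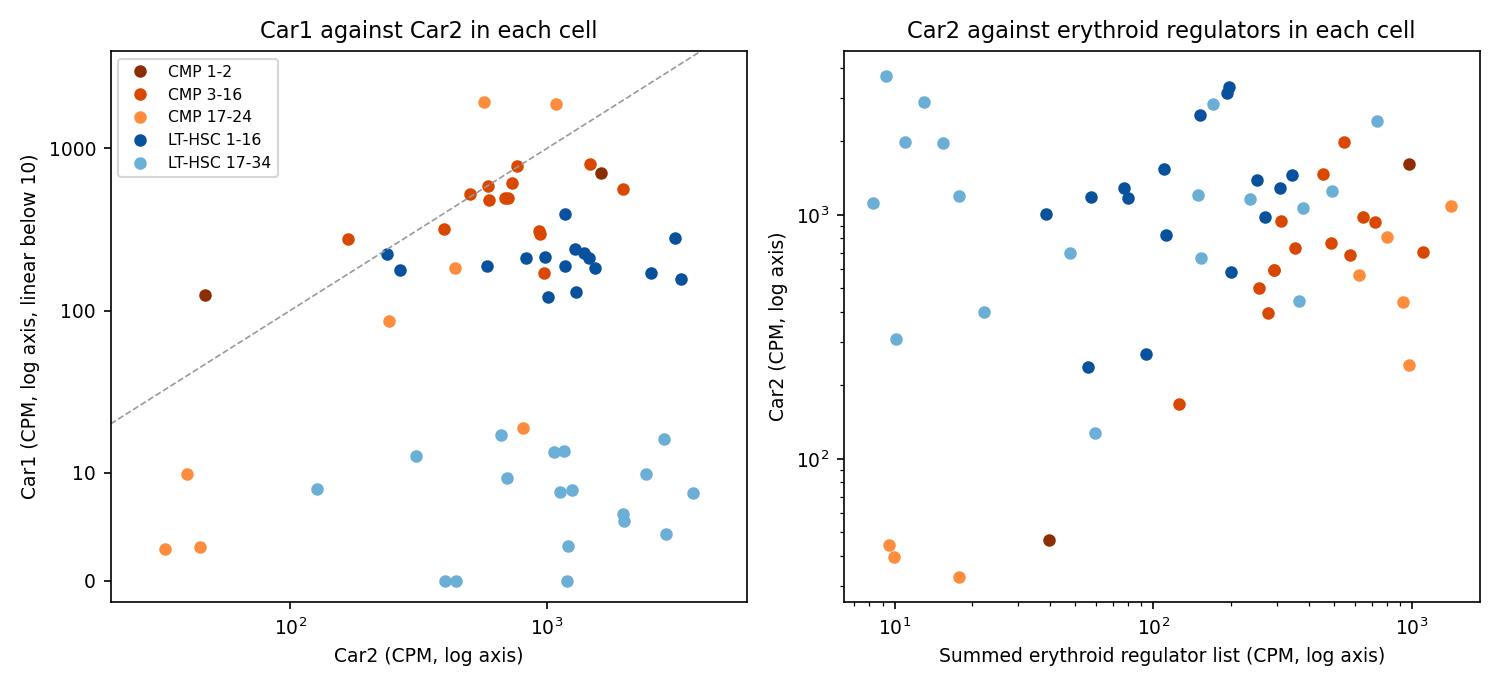
At the left, Car1 CPM against Car2 CPM in each cell on log axes (the Car1 axis is linear below 10 CPM), with the dashed line of equal levels. At the right, Car2 CPM against the summed CPM of the 12 genes of the erythroid regulator list on log axes. LT-HSC split into upper and lower bands of Car1 by cell number. In the highest-numbered block, 3 CMP combine Car1 below 10 CPM, Car2 below 50 CPM and an erythroid regulator list sum below 20 CPM.

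Car3 and Car13 lie in the same stretch, which runs from 14641727 to 14900770 on chromosome 3. Car13 had 9.49 CPM in CMP and 27.5 CPM in LT-HSC (log2 -1.53), and Car3 had 4.39 CPM in CMP and 19.1 CPM in LT-HSC (log2 -2.10). Of the 4 neighbouring genes Car1 was thus higher in CMP and the other 3 were lower. Of the 16 carbonic anhydrase genes listed, 6 had at least 20 counts, and 1 of them was at least 2-fold higher, 4 lower and 1 between (median log2 -1.42), beside 28.1% higher and 22.7% lower among all genes (median 0.13). The others of the 6 were Car9, with 15.1 CPM in CMP and 18.1 CPM in LT-HSC (log2 -0.26), and Car7, counted 0 times in CMP and 49 times in LT-HSC, at least 11.6-fold lower. Car4, Car5a, Car6 and Car10 had no count in any cell.

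Of the 9 genes, Car1 differed most between the LT-HSC blocks and varied least within the lower-numbered one. Every cell of LT-HSC 1 to 16 held 15 to 68 counts of it (median 45), while cells of LT-HSC 17 to 34 held 0 to 7 (median 3). In LT-HSC 1 to 16 its coefficient of variation over cells was 0.36, against a median of 1.24 over 1176 other genes whose mean count was within 2-fold, and 0 of those genes had a smaller one. This comparison of spread was chosen after the values were seen. Genes of mature neutrophils, a cell type that both sorts should leave out, had counts in the same cells. S100a8 had 15 to 57 counts in every cell of LT-HSC 1 to 16 (coefficient of variation 0.36) and 8 to 119 in each cell of the later block. Across cells, the Car1 count had a Spearman rho of 0.69 with the S100a8 count among cells 1 to 16 (n = 16) and 0.87 among cells 17 to 34 (n = 18), and of 0.68 and 0.87 with the cell's total count in the same blocks. Cell totals ran from 71197 to 338038 counts in LT-HSC 1 to 16 and from 45022 to 860553 in LT-HSC 17 to 34.

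All 9 genes of the mature neutrophil list had counts. Their summed level was 3.03, 530 and 5940 CPM in CMP cells and 219, 338 and 606 CPM in LT-HSC. It split the CMP by block, with 378 to 5940 CPM in CMP 3 to 16 and 3.03 to 61.9 CPM in CMP 17 to 24, where Camp had 0 counts. In CMP 3 to 16 (n = 14) the counts of Car1, Blvrb and Cpox had a rho of 0.90, 0.89 and 0.84 with the S100a8 count, and of 0.85, 0.84 and 0.71 with the total count of the cell. In CMP 17 to 24 (n = 8) Car1 had a rho of -0.22 with S100a8, and its counts ran from 1 to 809. Whether the mature neutrophil RNA came from other cells was not tested, nor was any part of such RNA in the ratios of Car1, Blvrb, Cpox and Alas2. The Car1 ratio was as large with CMP 17 to 24 as the only CMP (2.57, 2.43 to 2.71) as with CMP 3 to 16 (2.61, 2.48 to 2.74), but in CMP 17 to 24 CMP 19 held 72.9% of the Car1 counts. Markers of other cells also differed between the gates, where 28.1% of all genes were at least 2-fold higher in CMP. The macrophage list had 3 of 3 genes with at least 20 counts at least 2-fold higher in CMP and summed levels of 31.01 CPM in CMP (0 to 128) and 2.52 CPM in LT-HSC (0 to 35.4), with Adgre1 and Mrc1 at 0. The basophil, mast cell and eosinophil list had 6 of 6 higher, at 347 CPM in CMP (5.16 to 3780) and 11.7 CPM in LT-HSC (0 to 360), with Gzmb at 0. By block it held 662 CPM in CMP 3 to 16 and 77.1 CPM in CMP 17 to 24. The lymphoid list summed to 428 CPM in CMP (1.72 to 1205) and 349 CPM in LT-HSC (0 to 1692), nearly all of it Nkg7 (427 CPM in CMP and 349 CPM in LT-HSC), with Cd3e and Cd3g at 0. In LT-HSC it differed by block, at 2.35 CPM in cells 1 to 16 and 530 CPM in cells 17 to 34. The part of these lists in the ratios was not tested.

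**Figure D4:**
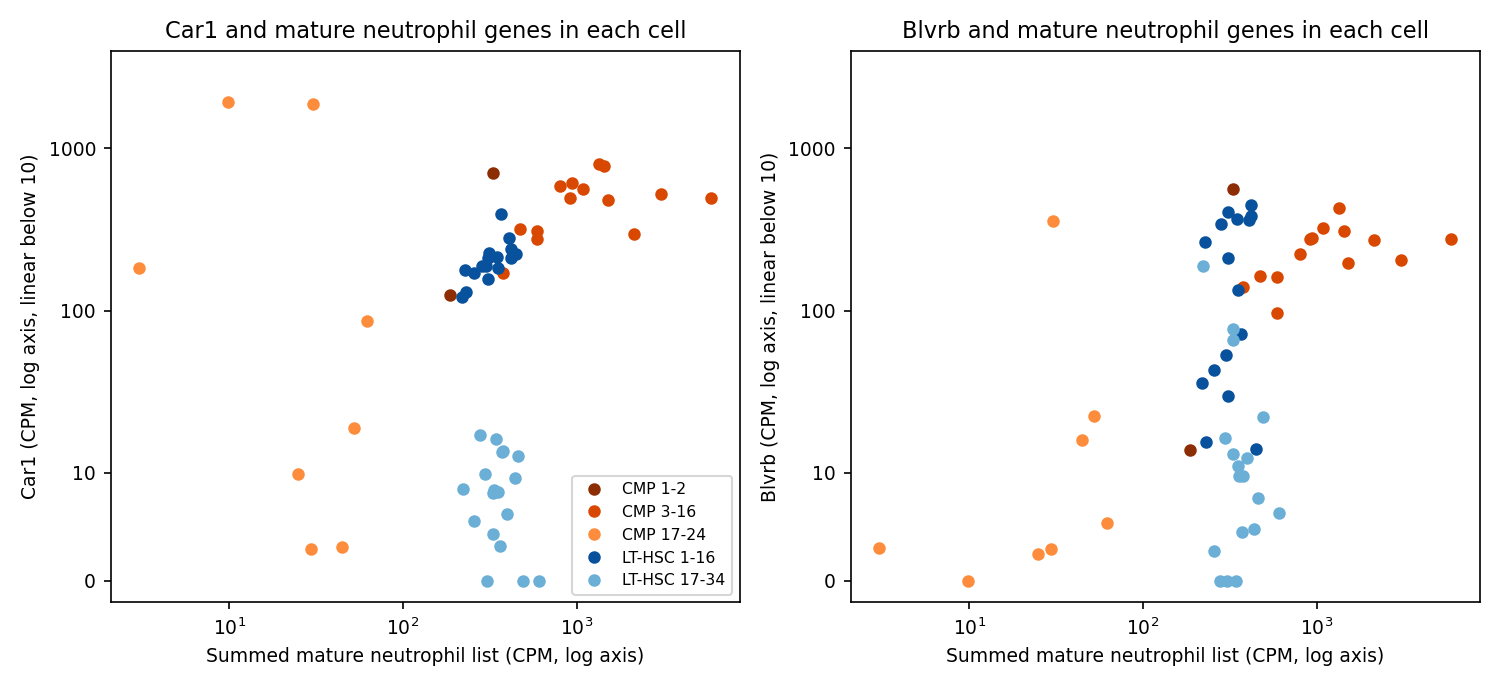
Car1 CPM (left) and Blvrb CPM (right) against the summed CPM of 9 mature neutrophil genes in each cell, on log axes that are linear below 10 CPM for Car1 and Blvrb. CMP 3 to 16 and LT-HSC hold 219 CPM or more of the neutrophil genes in every cell, CMP 17 to 24 hold at most 61.9 CPM, and 2 of these cells, CMP 19 and 21, have the highest Car1.

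Among the CMP, single cells carried very different sets of these genes. CMP 19 had the highest level of Urod (601 CPM) and Cpox (286 CPM) of all 58 cells, with Car1 at 1879 CPM, Car2 at 1082 CPM and Blvrb at 355 CPM. Uros and Fech had just 1 count each (2.32 CPM) in that cell. It also had 4222 CPM over the granulocyte and monocyte list, with Mpo at 1273 CPM. CMP 19 had 516 CPM of the erythroid factor Klf1, 395 CPM of Gata1 and the highest sum over the erythroid regulator list, 1412 CPM. Membrane proteins such as Ermap are part of that list of 12 genes. CMP 21 had the highest Car1 (1927 CPM) with 567 CPM of Car2, yet it had no count of Alad, Uros, Urod, Cpox, Fech or Blvrb. Its erythroid regulator list summed to 626 CPM, with no count of Klf1 or Gata1. Its granulocyte and monocyte list summed to 3982 CPM. In this cell of 102206 counts, 1 count is 9.78 CPM. CMP 20, 23 and 24 had 9.92, 3.17 and 2.97 CPM of Car1 and 39.7, 44.4 and 32.7 CPM of Car2. Over the erythroid regulator list they had 9.92, 9.51 and 17.8 CPM.

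Over cells of 1 group, Car2 followed the erythroid regulator list, which mixes factors with membrane proteins, most steadily. The Spearman rho of Car2 with the summed level of that list was 0.63 over all CMP (n = 24), 0.67 in CMP 3 to 16 (n = 14) and 0.69 in CMP 17 to 24 (n = 8). In LT-HSC it was 0.07 (n = 34), so the stem cells had high Car2 with and without these genes. The rho of Car2 with the granulocyte and monocyte list in CMP was -0.57. For Car1 the rho with the erythroid regulator list was 0.38 over all CMP, 0.01 in CMP 3 to 16 and 0.67 in CMP 17 to 24. For Tfrc it was 0.11, -0.39 and 0.83 in the same order. These are descriptions over cells of unequal depth.

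Among the 9 genes themselves, the closest pair in CMP was Cpox and Blvrb, with a rho of 0.86 over all cells, 0.60 in CMP 3 to 16 and 0.68 in CMP 17 to 24. Blvrb and Car2 had 0.77, 0.52 and 0.52 in the same order. Blvrb and Car1 had 0.69 over all CMP and 0.84 in CMP 3 to 16, but 0 in CMP 17 to 24. Car1 and Car2 had 0.60 over all CMP, 0.19 in CMP 3 to 16 and 0.79 in CMP 17 to 24. In LT-HSC the closest of these pairs, Blvrb and Car1 at 0.61, had 0.16 among cells 1 to 16 and -0.24 among cells 17 to 34, so the pooled value goes with the blocks.

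Of 6162 genes compared in CMP (at least 100 counts, found in at least 12 of the 24 cells), the ones nearest to each of the 9 by rho were as follows. Blvrb was nearest to Cpox, then Mt1 (0.79) and Slc25a21 (0.77), and Blvrb itself was followed by Ermap (0.83), an erythroid membrane protein, and Mt2 (0.81). Within CMP 3 to 16 and CMP 17 to 24, Cpox with Mt1 had 0.56 and 0.41, and Blvrb with Ermap 0.63 and 0.58. Blvrb with Mt2 had 0.88 in CMP 3 to 16 and no rho in CMP 17 to 24. Car2 was followed by Blvrb and Bdp1 (0.77 each) and Fam132a (0.71), and Car1 by Tnfaip2 (0.81), Gm15915 (0.80) and Stx2 (0.75). Car1 with Tnfaip2 had 0.48 in CMP 3 to 16 and 0.68 in CMP 17 to 24. Urod was followed by Ttc8 (0.84), which had 0.83 in CMP 3 to 16 and 0.76 in CMP 17 to 24, then Orc1 (0.71) and Ankrd27 (0.66). Alad was nearest to Gstt2 (0.79), Xpnpep1 (0.73) and Ifrd1 (0.72), Uros to Dbi (0.74), Uso1 (0.73) and Ap1ar (0.73), Fech to Kdelr2 (0.75), A230046K03Rik (0.74) and Crnkl1 (0.73), and Tfrc to Rtf1 (0.74), Alkbh7 (0.73) and Nol12 (0.72). In LT-HSC, among 3346 genes, Car1 was nearest to Mt1 (0.73), Ly6c2 (0.69) and Rpl37a (0.68), but the rho of Car1 with Mt1 was -0.09 in LT-HSC 1 to 16. Uros, Urod, Fech and Car2 had no gene at a rho of 0.6 there.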

How the data were processed

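The authors deposited counts, whole numbers per gene and cell, as 1 table. Per the labels' protocols, cells were reverse transcribed by a modified Smart-seq2 method with cell barcodes and molecular identifiers, pooled, and captured at 3′ ends. The submitters' processing notes name TopHat2 2.0.12, HTSeq, Seurat 2.0 and mm10. Whether counts are molecules or reads is not given in the sources used here, and intervals are too narrow if they are reads. All 58 columns were matched by name and no cell was removed.

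Counts were summed per group. CPM carry exact Poisson 95% intervals. Log2 ratios added 0.5 to each count and carry exact conditional binomial intervals. The method was checked on simulated pools that held counting error only, so the check does not cover spread between cells. Floors are 3 counts over a pool. Pathway and marker lists were summed as CPM, and list medians used genes with at least 20 counts. Named genes were the 9, up to 4 more per pathway list (at least 50 counts, largest ratio), the remaining heme enzymes, and up to 3 nearest genes by Spearman rho of at least 0.6. Slc40a1, Fth1, Ftl1, Car7, S100a8, Camp and single marker genes were named after their values were seen. Some members of the lists are not reported here. The genes and lists were chosen with earlier results of these data known. Python 3.11.15, pandas 2.3.3 and SciPy 1.17.1 were used.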

Additional observations from a re-analysis of the deposited data

How the results depend on the processing

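No paired analysis was possible because cell numbers only name cells and no test was made. The ratio of Fech changed sign, to -1.20 in cells without Xist (5 CMP counts) and to -0.16 (-0.92 to 0.50) with CMP 17 to 24 alone. That of Blvrb changed sign, to -0.11 (-0.24 to 0.03) against LT-HSC 1 to 16 and to -0.40 (-0.65 to -0.16) with CMP 17 to 24 alone. The cause was not tested. Genes at least 2-fold higher in CMP numbered 3 under median-of-ratios scaling, after thinning, against LT-HSC 1 to 16 and with CMP 17 to 24 alone, and 3 to 5 when each cell was left out in turn, the 3 without LT-HSC 34. Genes at least 2-fold lower numbered 2 in cells without Xist and with CMP 17 to 24 alone, and 1 to 2 with each cell left out, the 2 without CMP 5. Of all genes, 37.1% were higher against LT-HSC 1 to 16 and 25.4% with CMP 17 to 24 alone. The shares lower were 48.8% in cells without Xist and 32.1% with CMP 17 to 24 alone. For scaling, thinning and cells left out in turn, the share of all genes was not computed.

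The medians over all genes also moved, to -0.91 in cells without Xist, 0.36 against LT-HSC 1 to 16 and 0.24 against LT-HSC 17 to 34. They were 0.057 with CMP 3 to 16 alone and -0.12 with CMP 17 to 24 alone. The heme synthesis median was 0.49 in cells without Xist, 0.15 against LT-HSC 1 to 16, 1.40 against LT-HSC 17 to 34 and -0.58 with CMP 17 to 24 alone, and 0.46 to 0.94 with each cell left out. The iron median was 0.16 by the mean of cell CPM, 0.26 after thinning, -0.52 in cells without Xist, 0.37 against LT-HSC 1 to 16 and 0.40 with CMP 17 to 24 alone, and 0.46 to 0.94 with each cell left out. The breakdown and export median was -0.094 after thinning, -0.88 in cells without Xist, -0.16 against LT-HSC 1 to 16, -0.33 with CMP 17 to 24 alone and 0.033 at a minimum of 100 counts, and 0.14 to 0.60 with each cell left out. The mitochondrial median was -0.42 by the mean of cell CPM, -0.70 under median-of-ratios scaling, -0.38 after thinning, -0.33 against LT-HSC 1 to 16 and -0.18 with CMP 3 to 16 alone, and -0.62 to -0.48 with each cell left out. The carbonic anhydrase median was -3.03 in cells without Xist, -0.45 against LT-HSC 1 to 16, -2.70 with CMP 3 to 16 alone and -0.40 with CMP 17 to 24 alone, and -1.70 to -0.87 with each cell left out. The Car1 share was 41.5% in CMP by the median over cells, 42.2% without CMP 1 and 2, 36.8% with CMP 3 to 16 alone and 52.2% with CMP 17 to 24 alone, and in LT-HSC it was 11.5% for cells 1 to 16 and 0.51% for cells 17 to 34.

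Settings that divide the CMP at cell 16 were added after the data were seen. Uros, Cpox and Fech rest on 26 to 235 counts per group, and single cells hold much of their totals. Donor sex, cell blocks and gate overlap, and the animals behind the cells are not labelled, so no value has a replicate check.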
